A study of Homo sapiens with 6 samples.

Results

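The 10 genes described here encode chaperones, disulfide isomerases and quality-control proteins of the endoplasmic reticulum (ER): HSPA5, HSP90B1, HYOU1, CANX, CALR, PDIA3, PDIA4, PDIA6, DNAJB9 and HERPUD1. They were chosen by name for their function, not by a rule on measured values, but with earlier results of these data known. All 10 were found by their Ensembl gene identifiers among the 26445 probe sets measured. The cells were SW480, a human colorectal cancer line, in which a single clone carried the tetracycline repressor and a KIAA1199 construct that doxycycline switches on. The doxycycline group was exposed to the drug for 48 h at 50 ng/ml, the dose in the sample labels. The uninduced group was the same clone without induction. Cells of both groups carried the repressor and the construct and were selected with blasticidin S and G418. RNA was taken from both groups in 3 independent experiments and hybridized to 6 Affymetrix Human Exon 1.0 ST arrays, 3 per group. Because no repressor-only cells given doxycycline are among these arrays, an effect of the drug and an effect of KIAA1199 cannot be told apart.

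The ER is where secreted and membrane proteins fold. HSPA5 (BiP) holds unfolded chains and also keeps the stress sensors of the ER inactive. When unfolded proteins accumulate, the sensors are released and start the unfolded protein response, in which the transcription factors ATF6 and XBP1 raise the genes for chaperones, isomerases and degradation factors. KIAA1199 is itself a secreted glycoprotein that passes through the ER, and the study's question here is whether switching it on goes along with changed transcript levels.

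Known targets of this response carry short elements in front of their start sites. The ER stress response element (ERSE) is CCAAT and CCACG with 9 free bases between them, and its variant ERSE-II is ATTGG and CCACG with 1 free base between them. Both were searched on both strands of RefSeq promoters (build GRCh38.p14, 250 bases before to 50 after each start). A promoter was held for 9 of the 10 genes, all except PDIA3, and some genes had more than 1, with CANX at 4 and PDIA4 and PDIA6 at 2 each. An exact ERSE lay in at least 1 promoter of 5 of these 9 genes (HSPA5, HSP90B1, CANX, CALR and PDIA6), against 25 of all 27305 genes with a promoter, or 0.0916% (0.0769% of the 35116 single promoters). An exact ERSE-II lay in 2 of the 9 genes (HYOU1 and HERPUD1), against 19 of all genes, or 0.0696% (0.0541% of single promoters). PDIA4 and DNAJB9 held neither in this window. The genes were chosen for their function in the ER, where known targets of this response lie. These shares are thus a description and not an independent test of enrichment. The stretches with a match are printed because they are the sequence feature by which the genes differ. Capitals mark the match, on either strand, and each stretch runs from 5′ to 3′ in the direction of its gene.
HSPA5, chr9:125241361-125241439, minus strand: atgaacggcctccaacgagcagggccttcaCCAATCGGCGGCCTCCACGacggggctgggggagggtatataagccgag
HSP90B1, chr12:103930186-103930369, plus strand: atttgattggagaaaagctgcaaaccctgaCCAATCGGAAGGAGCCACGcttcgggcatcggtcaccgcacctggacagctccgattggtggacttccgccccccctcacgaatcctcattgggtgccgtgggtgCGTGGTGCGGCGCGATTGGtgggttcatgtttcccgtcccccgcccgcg
CANX, chr5:179698748-179698796, plus strand: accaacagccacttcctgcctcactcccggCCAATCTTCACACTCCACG
CALR, chr19:12938359-12938432, plus strand: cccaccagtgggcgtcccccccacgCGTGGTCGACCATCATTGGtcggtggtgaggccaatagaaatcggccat
PDIA6, chr2:10812823-10812901, minus strand: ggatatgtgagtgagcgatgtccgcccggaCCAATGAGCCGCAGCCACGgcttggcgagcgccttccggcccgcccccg
HYOU1, chr11:119057244-119057423, minus strand: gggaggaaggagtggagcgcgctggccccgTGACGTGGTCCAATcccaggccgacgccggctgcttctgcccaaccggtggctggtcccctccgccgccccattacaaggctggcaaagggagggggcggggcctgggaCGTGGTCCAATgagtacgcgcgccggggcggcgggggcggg
HERPUD1, chr16:56931995-56932065, plus strand: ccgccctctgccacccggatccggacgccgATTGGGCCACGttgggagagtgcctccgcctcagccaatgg
HSP90B1 held 2 ERSE matches, 1 on each strand, and HYOU1 held 2 ERSE-II matches. The first of those in HYOU1 overlaps a match to TGACGTGG, the core of another element of the response, which 0.927% of all genes hold (0.729% of single promoters). The CANX stretch ends at the match because a further CANX start site lies inside it. The shorter motif CCACG, which is part of both elements, was in at least 1 promoter of each of the 9 genes, but also in that of 42.1% of all genes (38.1% of single promoters).

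In the deposited gene-wise values, none of the 10 genes (0 of 10) reached the limits that the study used to select genes, an unadjusted p under 0.025 together with a change of at least 1.2-fold, in limma with the experiment as a block. The study made its own selection on transcript clusters, another summary of the same arrays that was not analysed here, so this count does not say which genes are on its list. Over all probe sets 5.83% passed these limits, so in 10 genes a count of 0 is near that background. No gene of the 10, and none (0) of all probe sets, had a Benjamini-Hochberg adjusted p under 0.05 in limma, although 1 of the 10 and 12.3% of all probe sets had an unadjusted p under 0.05. In the methods' paired t-test also 0 of the 10 passed the study's limits, against 2.18% of all probe sets, and 0 of the 10 had an unadjusted p under 0.05, against 10.4%. The log2 differences, doxycycline minus uninduced, ran from -0.24 for DNAJB9 to 0.13 for HSPA5, with a median of 0.056 beside 0.0017 over all probe sets, and the adjusted p-values from limma lay between 0.40 and 0.98. All levels below are log2 expression levels, and no gene's level is set against another's, since probes differ in brightness.

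**Figure D1:**
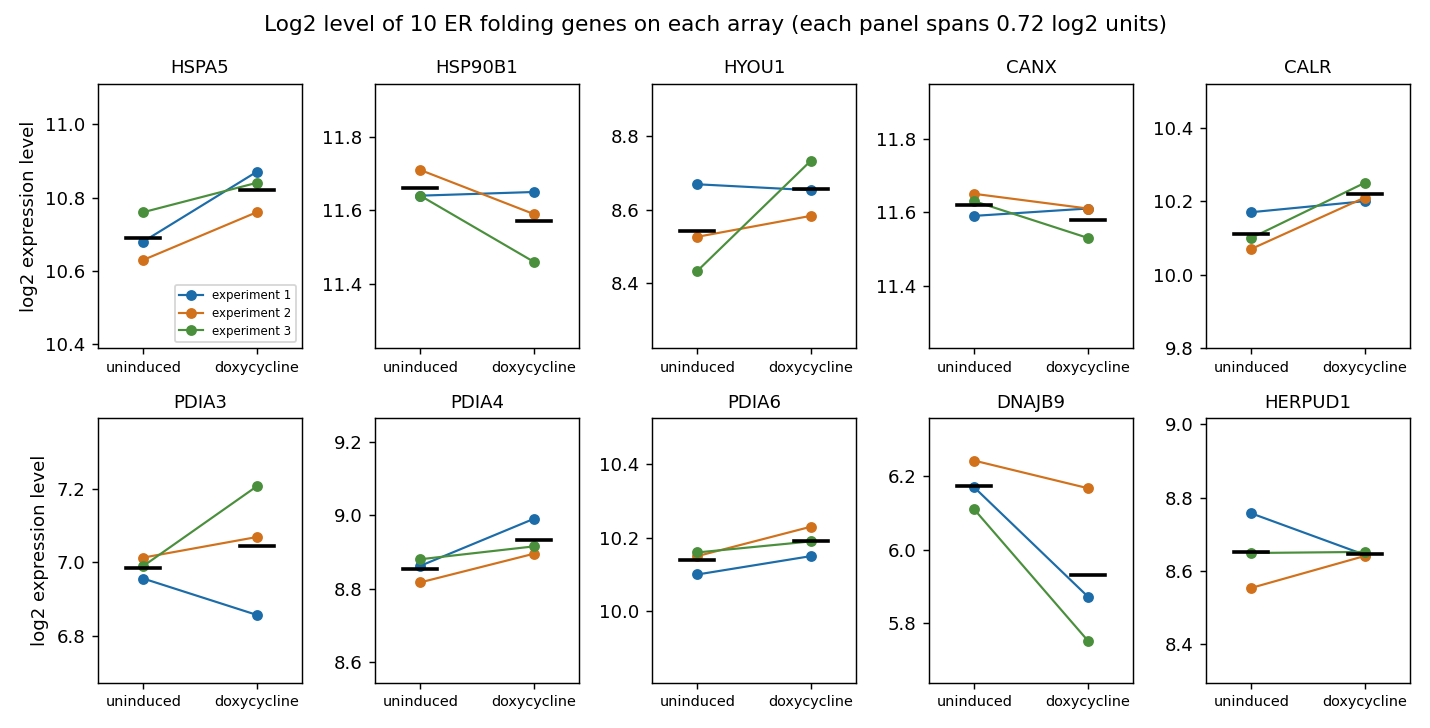
Log2 expression level of each of the 10 genes (y axis, log2 units) in uninduced and doxycycline cells (x axis). Points are single arrays, coloured lines join the arrays of 1 experiment, and black bars are the means of 3 arrays. The 3 lines rise for HSPA5, CALR, PDIA4 and PDIA6, fall for DNAJB9 and run in mixed directions for the other genes.

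Among the chaperones, HSPA5 (ENSG00000044574_at), the ER member of the HSP70 family and a widely used readout of ER stress, read 10.68, 10.63 and 10.76 in uninduced cells of experiments 1, 2 and 3 and 10.87, 10.76 and 10.84 with doxycycline. Its level was higher with doxycycline in each experiment, but the lowest doxycycline array and the highest uninduced array had the same value, so the groups met. The log2 difference was 0.13 (standard error 0.064, 95% interval -0.04 to 0.31, adjusted p = 0.49 from limma), a 1.10-fold difference whose interval reaches up to 1.24-fold. HSP90B1 (GRP94, ENSG00000166598_at), the ER member of the HSP90 family, which finishes the folding of integrins and Toll-like receptors, read 11.64, 11.71 and 11.64 uninduced and 11.65, 11.59 and 11.46 with doxycycline. It was nearly level in experiment 1 and lower with doxycycline in experiments 2 and 3, with overlapping groups and a log2 difference of -0.10 (standard error 0.072, 95% interval -0.30 to 0.10). HYOU1 (GRP170, ENSG00000149428_at), a large HSP70-related protein that exchanges the nucleotide on HSPA5, read 8.67, 8.53 and 8.43 uninduced and 8.65, 8.58 and 8.73 with doxycycline. Its mean log2 difference of 0.11 (standard error 0.090) came mostly from experiment 3, where it was 0.30, and without that experiment it was 0.021.

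CANX (calnexin, ENSG00000127022_at) and CALR (calreticulin, ENSG00000179218_at) are lectins that bind the trimmed sugar chains of new glycoproteins, the former anchored in the membrane and the latter soluble in the lumen. CANX read 11.59, 11.65 and 11.63 uninduced and 11.61, 11.61 and 11.53 with doxycycline. The groups overlapped, and the log2 difference was -0.04 (standard error 0.065), with a 95% interval from -0.22 to 0.14. At its lower end this interval allows a level 1.16-fold lower with doxycycline, for this probe set and not for other summaries of CANX probes. CALR read 10.17, 10.07 and 10.10 uninduced and 10.20, 10.21 and 10.25 with doxycycline. All 3 CALR values with doxycycline lay above all 3 without it, by a gap of 0.03, which is 3 times the 0.01 steps in which values of this size were deposited. Its log2 difference was 0.11 (standard error 0.066, 95% interval -0.08 to 0.29, adjusted p = 0.58 from limma).

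The 3 disulfide isomerases, which make and rearrange disulfide bonds, had mean log2 differences between 0.053 and 0.080. PDIA3 (ERp57, ENSG00000167004_at), which works with CANX and CALR on glycoproteins, read 6.96, 7.01 and 6.99 uninduced and 6.86, 7.07 and 7.21 with doxycycline. Its differences of -0.10, 0.06 and 0.22 in experiments 1, 2 and 3 did not share a sign, with a mean of 0.058 (standard error 0.088), and the SD of its doxycycline arrays (0.18, n = 3) was above that of its uninduced arrays (0.029, n = 3). PDIA4 (ERp72, ENSG00000155660_at) read 8.86, 8.82 and 8.88 uninduced and 8.99, 8.90 and 8.92 with doxycycline. The groups did not overlap, with a gap of 0.015, and the log2 difference was 0.080 (standard error 0.063, 95% interval -0.09 to 0.25). PDIA6 (P5, ENSG00000143870_at), which also binds the stress sensors, read 10.10, 10.15 and 10.16 uninduced and 10.15, 10.23 and 10.19 with doxycycline. It was higher with doxycycline by 0.05, 0.08 and 0.03, where the SD within a group was 0.032 uninduced and 0.040 with doxycycline (n = 3 each). The groups overlapped, and the mean difference was 0.053 (standard error 0.061).

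DNAJB9 (ERdj4, ENSG00000128590_at), a J-domain partner of HSPA5 that is induced through XBP1 and brings HSPA5 to the sensor IRE1, had the largest mean difference of the 10 genes. It read 6.17, 6.24 and 6.11 uninduced and 5.87, 6.17 and 5.75 with doxycycline. It was lower with doxycycline in all 3 experiments, by 0.30, 0.075 and 0.36 on the log2 scale, yet the doxycycline array of experiment 2 lay above 1 uninduced array, that of experiment 3. The log2 difference was -0.24 (standard error 0.085, 95% interval -0.48 to -0.0066), 1.18-fold lower with doxycycline, with an unadjusted p of 0.0462 and an adjusted p of 0.40 from limma. HERPUD1 (ENSG00000051108_at), a membrane protein of the machinery that sends misfolded proteins to the proteasome, read 8.76, 8.55 and 8.65 uninduced and 8.64, 8.64 and 8.65 with doxycycline. Its doxycycline arrays were nearly equal (SD 0.0057, n = 3) and lay inside the range of the uninduced ones, and the log2 difference was -0.0077 (standard error 0.073). The unadjusted p of DNAJB9 was not kept under 0.05 in every setting. It was 0.0844 without the replicate block, 0.105 in the methods' paired t-test, 0.157 without experiment 1 and 0.174 without experiment 3.

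**Figure D2:**
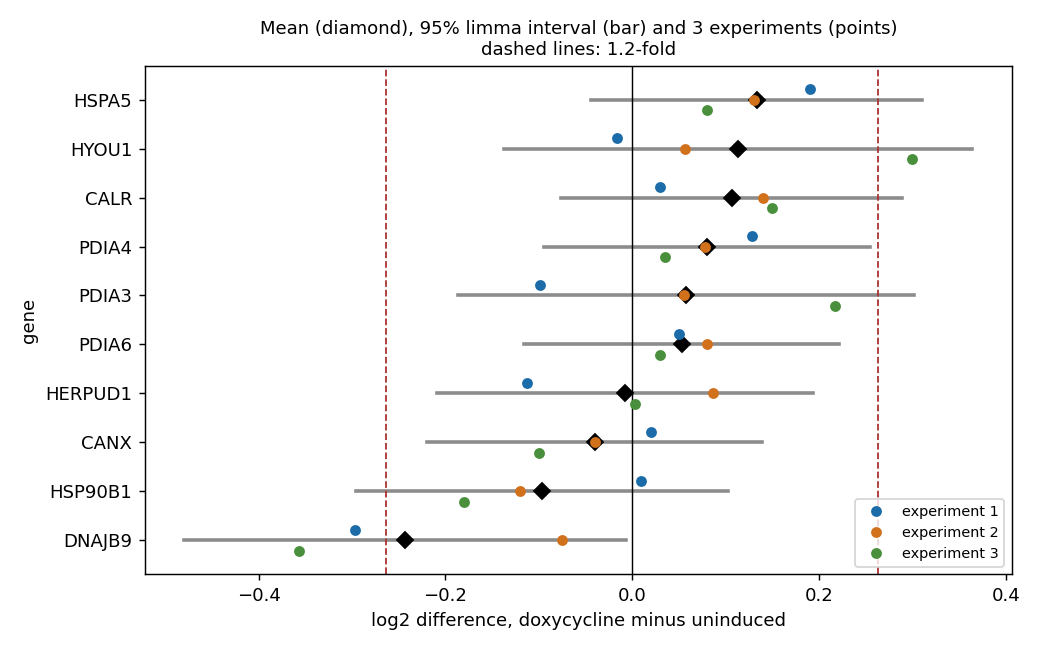
Log2 difference between doxycycline and uninduced cells (x axis) for the 10 genes (y axis), ordered by the mean. Diamonds are means, grey bars 95% limma intervals, coloured points the 3 experiments, and dashed lines 1.2-fold in either direction. All 10 means lie inside the dashed lines, and the bar of DNAJB9 is the only one of the 10 that does not cross 0.

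The size of a change that these arrays leave room for was read from the limma intervals. Those draw on variance information from all probe sets, and intervals from the methods' paired t-test are not given. For all 10 genes the 95% limma interval lay within 1.5-fold in either direction, as it did for 78.9% of all probe sets. This count holds for limma intervals only and is not claimed for paired ones. The 3 differences of DNAJB9 had an SD of 0.15 and its p in the methods' paired t-test was 0.105. A 95% interval from that test would therefore include 0, unlike its limma interval. For CANX, PDIA4, PDIA6 and HERPUD1 it lay within 1.2-fold in either direction, 4 of 10 genes against 23.8% of all probe sets. The interval of HYOU1 reached 1.29-fold higher, the farthest upward of the 10, and that of DNAJB9 1.39-fold lower, the farthest downward. Standard errors ran from 0.061 to 0.090, with a median of 0.069 beside 0.084 over all probe sets, and the SD of a gene's 3 differences had a median of 0.082 beside 0.14. The median level of the 10 genes over the arrays was 9.53, while that of all probe sets was 5.66. DNAJB9 and PDIA3 lay nearer to the latter value. The mean level of DNAJB9 was 6.17 uninduced and 5.93 with doxycycline, and that of PDIA3 was 6.99 and 7.04. No mean difference of the 10 genes reached 1.2-fold, which that of 15.3% of all probe sets did at any p.

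**Figure D3:**
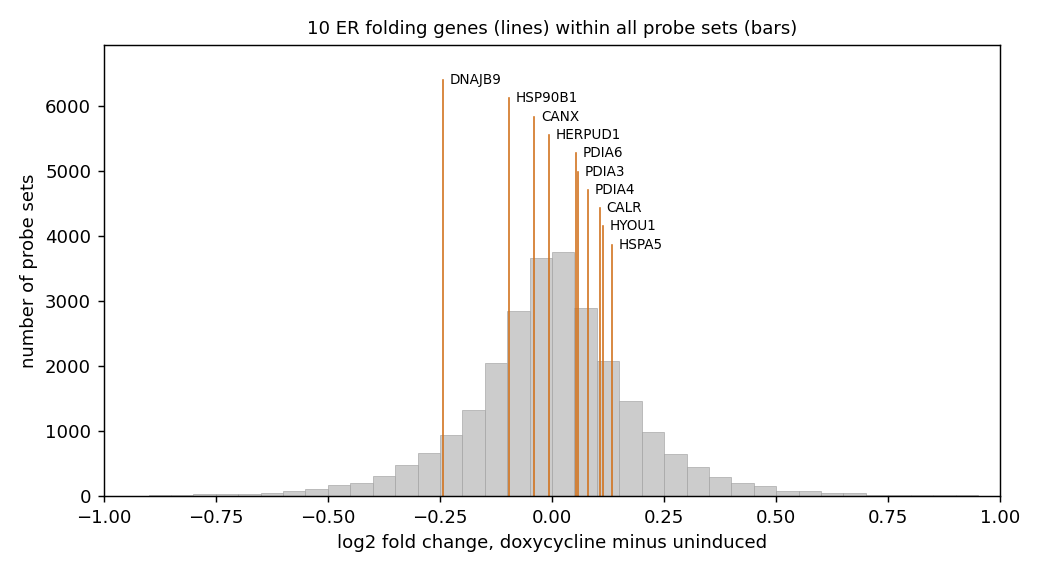
Distribution of the log2 fold change, doxycycline minus uninduced (x axis), over all probe sets (grey bars, number of probe sets on the y axis), with a line for each of the 10 genes. The x axis is drawn from -1 to 1, and the height of a line carries no value. The lines lie in the central part of the distribution, between -0.24 for DNAJB9 and 0.13 for HSPA5.

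The directions were mixed. The mean difference was above 0 for 6 of the 10 genes, against 50.5% of all probe sets. HSPA5, CALR, PDIA4 and PDIA6 were higher with doxycycline in all 3 experiments, 4 of 10 genes beside 18.9% of all probe sets. DNAJB9 was lower in all 3, 1 of 10 beside 17.6%. In either direction these are 5 of 10 genes beside 36.5% of all probe sets. The groups did not overlap for CALR and PDIA4, 2 of 10 beside 16.6% of all probe sets. With 3 pairs, an exact sign-flip permutation test (two-sided) cannot give a p under 0.25, and the 5 genes with 1 direction throughout are at that value.

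By experiment, the median difference of the 10 genes was 0.015 in experiment 1, 0.068 in experiment 2 and 0.032 in experiment 3, while that of all probe sets was between -0.004 and 0.007. By promoter, the 5 genes with an ERSE had log2 differences from -0.10 for HSP90B1 to 0.13 for HSPA5, and 3 of the 5 were above 0. The 2 genes with an ERSE-II, HYOU1 and HERPUD1, had 0.11 and -0.0077. The 2 genes with neither element in the window, PDIA4 and DNAJB9, had 0.080 and -0.24. Within each of these groups the differences lay on both sides of 0, for some genes by less than the standard error. None of these differences passed the study's limits, and whether an element goes along with the response was not tested.

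Differences between 2 genes of the same arrays were also taken for all 45 pairs, as a description without a test. In 22 of the 45 pairs the response of 1 gene exceeded that of the other in all 3 experiments. The pairs reuse the same genes, and the share among pairs of other probe sets was not taken. The count is therefore not read as a result about these genes. DNAJB9 had the lower difference of the pair in all 3 experiments against 8 of the other 9 genes, the exception being HSP90B1. The largest mean distance was between HSPA5 and DNAJB9, at 0.49, 0.21 and 0.44 in experiments 1, 2 and 3 on the log2 scale. It follows from HSPA5 having the highest and DNAJB9 the lowest mean difference of the genes. HSPA5 and DNAJB9 are partners, the chaperone and its J-domain protein. HSPA5 stood above HSP90B1, the other abundant chaperone of the lumen, by 0.18, 0.25 and 0.26, and above CANX by 0.17, 0.17 and 0.18. The difference of PDIA4 was below that of HSPA5 by 0.062, 0.052 and 0.045. A steady gap does not show that a gene follows HSPA5. The gap of CANX was steadier still, with an SD of 0.0058 beside 0.0085 for PDIA4. Yet the level of CANX had an r of -0.54 with that of HSPA5 over the 6 arrays, which share experiments and groups. The level of PDIA4 had the highest r among the other 9 genes, 0.94, a value that 213 other probe sets exceeded. These pairs were named after their values were seen.

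**Figure D4:**
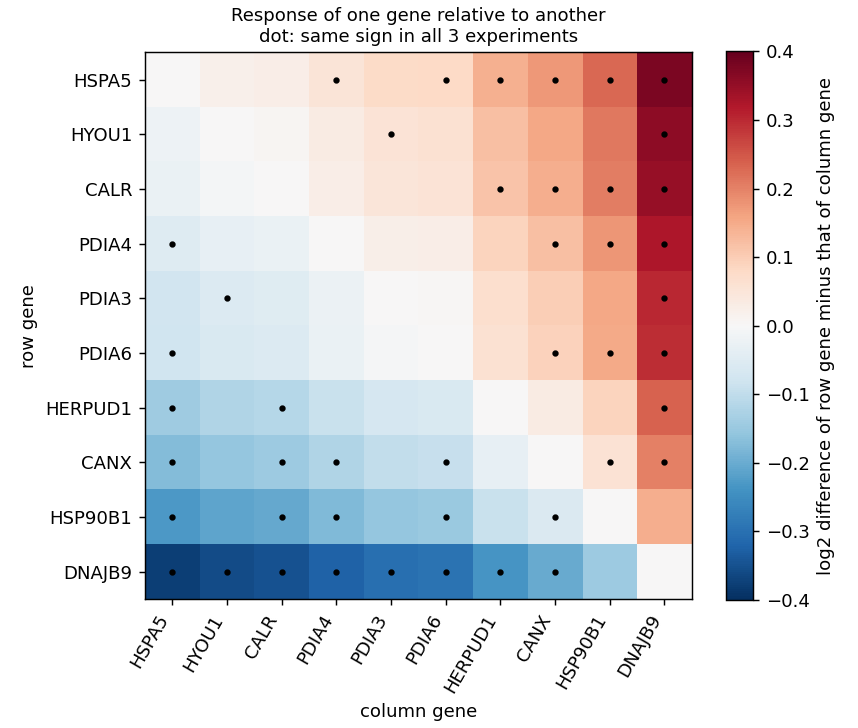
Mean over 3 experiments of the log2 difference (doxycycline minus uninduced) of the row gene minus that of the column gene, for all pairs of the 10 genes (colour scale in log2 units). A dot marks pairs with the same sign in all 3 experiments. The row of DNAJB9 is blue throughout because its mean difference is the lowest of the 10, and it has dots against 8 of the other 9 genes.

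Values of the targeted gene KIAA1199, of further genes of the pathway such as P4HB, XBP1 and DDIT3, and of epithelial markers were not analysed here, because the tables used do not pair their symbols with the identifiers of the probe sets. The 6 arrays correlated with each other with an r between 0.984 and 0.989 over all probe sets, and no array stood apart. The number of arrays, 3 per group, limits the precision of every value given.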

How the data were processed

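For every array the authors deposited the log2 levels of 26445 gene-wise probe sets, and an Ensembl identifier names each of them. RMA is named in the submitters' processing notes, all arrays share 1 distribution, and the annotation version is not given in the sources used here. The deposited values were used as they are. Groups and experiment numbers came from the sample titles, since the labels' treatment field names doxycycline for every sample. Each probe set was tested with limma 3.58.1 in R 4.3.3 (lmFit, eBayes, 2-sided), doxycycline minus uninduced, with the experiment as a block as in the study's paired test, and with Benjamini-Hochberg adjustment over all probe sets. The fits were tested on simulated data without an experiment effect and with changes larger than those of the 10 genes. That test does not show how the fits perform at changes of the size seen here. Alternatives left out the block, used the methods' t-test, changed the variance prior, the scaling, the fold minimum or the probe sets tested, or left out each experiment. The pairing of the 10 symbols with identifiers came with the gene set and not from the files. The reference table (59792 genes) holds no Ensembl identifiers, so 6 further lists of 77 pathway genes and the probe sets most like HSPA5 could not be named. The genes and lists were chosen with earlier results of these data known. All 10 genes are named in the text, and pairs among them were chosen after their values were seen.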

Additional observations from a re-analysis of the deposited data

How the results depend on the processing

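For the 10 genes, 98 of 100 combinations of gene and alternative kept the direction and the side of the study's limits. The 7 alternatives that kept all arrays left every log2 difference of the 10 genes unchanged, because the design is balanced. No direction could turn in them, so their kept directions are no support. Most could change only the p-values, and centring and a second quantile normalization cannot move values that already share 1 distribution. Both that turned came from leaving out an experiment: PDIA3 to -0.022 without experiment 3 and HERPUD1 to 0.045 without experiment 1; the cause was not tested. Leaving out each experiment in turn gave log2 differences of 0.105 to 0.16 for HSPA5, -0.15 to -0.055 for HSP90B1, 0.021 to 0.18 for HYOU1, -0.07 to -0.01 for CANX, 0.085 to 0.145 for CALR, -0.022 to 0.14 for PDIA3, 0.057 to 0.103 for PDIA4, 0.04 to 0.065 for PDIA6, -0.33 to -0.19 for DNAJB9 and -0.055 to 0.045 for HERPUD1. Their median, 0.056, was then 0.0053 to 0.056, the lowest without experiment 3.

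The number of the 10 genes past the study's limits, raised or lowered, was 0 in every alternative run, with no fold minimum too. The number with an unadjusted p under 0.05, 1 with the block (DNAJB9), was 0 with no replicate block, 0 in the methods' t-test, 2 (DNAJB9 and HSPA5) in limma with a variance prior that depends on the level, and 0 to 1 with an experiment left out. Of all settings, the smallest adjusted p for a gene of the 10 was 0.287 in limma, for DNAJB9 without the dimmest 25% of probe sets. Over all probe sets, 1543 passed the study's limits, 1050 without the replicate block, 577 in the methods' t-test, 238 with a minimum of 1.5-fold, and 986 (without experiment 3) to 1344 with an experiment left out, 994 without experiment 2. Same-numbered arrays deviated from their group means with an r of 0.0387, 0.0493 and 0.129 over all probe sets, which is not above 0.1 in every pair. Among arrays of unlike number, uninduced 1 with doxycycline 2 had an r of 0.0436, above the 0.0387 of experiment 1. The remaining pairs of unlike number had an r below 0. The numbers thus pair the arrays by the study's own paired test and not by these values. Leaving out the block changed no call of the 10 genes at the study's limits. The alternatives planned for the further gene lists were not run because their identifiers could not be named.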
